A study of Mus musculus with 38 samples.

Results

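The data described here are the ribosome footprints of resting primary mouse cortical neurons in which eIF4G2 was knocked down: 2 pulldown libraries set against 2 input libraries, chosen by their titles (KD_pd_Rest and KD_in_Rest), 4 of the 38 libraries of the series. The neurons came from pooled CD-1 embryos and carried a doxycycline-inducible lentiviral transgene in which the biotin ligase TurboID is joined to PSD95 (rat coding sequence, with PSD95 UTRs), and dishes were pooled for each sample. All 4 libraries come from cells given a pool of siRNAs against eIF4G2 at 20 nM for 72 h, biotin for 30 min and cycloheximide for 2 min, and the input is a part of the same monosome fraction from which the biotinylated ribosomes of the pulldown were taken. Neurons with a non-targeting siRNA were not analysed here. Same-numbered inputs and pulldowns are taken by their numbers to share a lysate, and with 2 lysates every p-value below measures only the spread between these libraries. The knockdown libraries carry the word cytosol in one label and the PSD95-TurboID virus in another; the study treats them as dendritic, and they are set here against PSD95-TurboID libraries. For comparison, 4 libraries of knockdown neurons depolarized with 55 mM KCl for 1 h after silencing with TTX and DL-AP5 (2 inputs and 2 pulldowns), and 6 libraries of resting PSD95-TurboID neurons without siRNA (3 and 3), were used.

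eIF4G2, also called DAP5, is a relative of the scaffold initiation factor eIF4G1 that lacks the part that binds the cap-binding protein eIF4E, and it is known for initiation that does not depend on that protein. In proximity labelling, a ligase placed at the postsynaptic density tags proteins within a short reach, ribosomes among them, so that ribosome-protected fragments recovered on streptavidin sample mRNAs translated near it. Carboxylases such as ACC1 carry biotin as their natural cofactor and bind streptavidin too.

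Eif4g2 (chromosome 7, 111072692 to 111081547, mm10; CDS of 2721 nt) was measured first. Its coding footprints stood at 279 and 279 CPM in the resting knockdown inputs and at 522, 562 and 569 CPM in the resting inputs without knockdown, where CPM scales the counts of a gene to the TMM-adjusted size of its library. The 2 groups did not overlap, and the difference was −0.98 ± 0.14 (log2 ± SE; edgeR quasi-likelihood test, adjusted p = 0.000379), larger than the spread within either group. The pulldowns held 281 and 215 CPM with knockdown and 375, 412 and 343 without (−0.60 ± 0.14, adjusted p = 0.00812). Between these same inputs, 753 of 12873 genes (5.85%) were higher and 710 (5.52%) lower with knockdown. The knockdown and control libraries were made in different experiments, so siRNA and experiment cannot be told apart. Within the resting knockdown, Eif4g2 did not pass between pulldown and input (272 and 273 against 276 and 213 CPM, −0.15 ± 0.11, adjusted p = 0.30). The value turned on the pulldowns, being −0.38 without pulldown 1 (adjusted p = 0.0195) and 0.01 without pulldown 2 (adjusted p = 0.96).

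The inputs held 6464209 and 7856261 counts in the chosen coding sequences and the pulldowns 4529321 and 2342174. Replicates correlated at 0.98 (inputs) and 0.95 (pulldowns) on log2 CPM across genes. Neuron markers summed to 6866 and 6954 CPM in the inputs and to 5618 and 5734 in the pulldowns, with none of the 12 at 0. The 10 oligodendrocyte lineage markers summed to 227 and 234 CPM in the inputs and 137 and 161 in the pulldowns, where the myelin protein Mog alone was at 0 in each library. The 10 microglia markers summed to 18.6 and 24.9 CPM and to 17.7 and 12.4, with 1 to 4 of them at 0, Tmem119 in all 4 libraries. Astrocyte markers summed to between 899 and 923 CPM in the inputs and between 699 and 844 in the pulldowns, where S100b was at 0, and vascular markers to 242 to 246 and 99.4 to 118. Footprints of glial marker genes were thus present, but the sums do not show which cells they came from. The study reported cultures free of glia and oligodendrocytes by staining for GFAP and OLIG2. Input and pulldown of a pair are taken to come from the same lysate, and these sums are of ribosome footprints. Between experiments, fewer cells of a type and fewer footprints per cell cannot be told apart in such bulk libraries.

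Which mRNAs had more or fewer coding footprints in the pulldown than in the input? Of 12223 genes tested, 2700 (22.1%) were higher and 2860 (23.4%) lower in the pulldown at an adjusted p under 0.05, 1118 and 1597 of them by more than 2-fold. The direction was the same in both pairs for 2697 of the 2700 and for 2860 of the 2860. The median over all genes was −0.01 on the log2 scale, where the scaling places it. For scale, the same contrast in depolarized knockdown neurons gave 2932 (24.0%) and 3032 (24.8%) genes in the same fit. In a separate fit of the 10 resting libraries, neurons without knockdown gave 2530 (19.7%) and 2522 (19.6%) of 12873, and the resting knockdown 1982 and 2238.

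The increases with the smallest p, by which the lead genes were chosen, lay in very long mRNAs and in a few proteins with a tie to the method. Genes of low counts could have larger ratios with larger p, such as Lime1 with 3 and 8 counts in the inputs and 77 and 21 in the pulldowns (4.18, adjusted p = 5.38e-05). Prrc2b, a large RNA-binding protein of stress granules, had 433 and 437 CPM in the inputs and 4963 and 5501 in the pulldowns (3.59 ± 0.08, adjusted p = 1.97e-21). Map1a, which binds dendritic microtubules, went from 993 and 976 CPM to 7578 and 8272 (3.01 ± 0.08, adjusted p = 4.47e-20). Its relative Map1b was the most abundant of the lead genes, at 11740 and 11623 CPM in the inputs and 44854 and 46145 in the pulldowns (1.96 ± 0.05, adjusted p = 1.84e-19). For each of these 3 genes the lowest pulldown exceeded the highest input several-fold, far beyond the spread within either group. Eif5b, the GTPase that joins the ribosomal subunits at the start codon, stood at 118 and 114 CPM against 1595 and 1490 (3.73 ± 0.11, adjusted p = 5.07e-19). Ylpm1, a nuclear protein, stood at 170 and 164 against 1741 and 1678 (3.36 ± 0.10), and Nup153, a nuclear pore basket protein, at 108 and 102 against 1087 and 1129 (3.40 ± 0.12). The chromatin-associated proteins Bahcc1 (3.16 ± 0.11) and Tnrc18 (3.07 ± 0.11) complete the long nuclear genes at the head of the list.

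Dlg4, which encodes PSD95 itself, gave the largest ratio of the lead genes. It had 130 and 125 CPM in the inputs and 2038 and 2518 in the pulldowns (4.16 ± 0.11, adjusted p = 9.28e-20). The transgene carries a rat PSD95 coding sequence, and footprints of transgene and endogenous mRNA were not separated. In neurons without knockdown the log2 ratio of Dlg4 was 3.74, and the difference from the knockdown did not pass (0.40, adjusted p = 0.80) in a fit that left out the pairing by replicate number. The chosen transcript counts only 822 nt of coding sequence.

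The biotin-dependent carboxylases were described for the biotin they carry. Acaca, cytosolic acetyl-CoA carboxylase, had 137 and 146 CPM in the inputs and 1155 and 1120 in the pulldowns (3.01 ± 0.11, adjusted p = 7.88e-17). Pcca, a mitochondrial carboxylase subunit, had 35.3 and 35.8 against 80.8 and 72.2 CPM (1.11 ± 0.18). Acacb passed on few counts, 2 and 3 in the inputs and 23 and 5 in the pulldowns (adjusted p = 0.0113), a call lost without either input (3.28 and 3.55) or without pulldown 1 (2.60), and Mccc1 did not pass (0.06 ± 0.55). In all, 3 of 4 measured carboxylases were higher and none lower, with a median of 2.06. The ratio of Acaca without knockdown was 2.84, and the difference did not pass (0.15, adjusted p = 0.96) in the same fit without the pairing.

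Among the decreases were short and single-exon mRNAs. Ubb, which encodes ubiquitin, went from 1721 and 1729 CPM in the inputs to 564 and 629 in the pulldowns (−1.53 ± 0.09, adjusted p = 3.82e-13). Ubiquitin coding repeats are near-identical between genes, so the division of their reads is uncertain, as is that between the histone H4 copies Hist1h4d (−2.02 ± 0.12), Hist1h4m (−1.81 ± 0.11) and Hist1h4j (−1.84 ± 0.11) and for the unnamed gene model Gm8797 (−1.55 ± 0.09). Nnat, a small ER membrane proteolipid, fell from 1247 and 1294 to 386 and 358 CPM (−1.77 ± 0.08), and Tmsb4x, the actin-binding peptide thymosin beta 4, from 1389 and 1440 to 462 and 330 (−1.83 ± 0.11). Mapt, which encodes the axonal protein tau, fell from 2149 and 2168 to 802 and 761 CPM (−1.47 ± 0.07), the opposite of Map1a and Map1b. Dner, a Notch-type surface ligand, fell from 3255 and 3369 to 1258 and 1367 CPM (−1.34 ± 0.07), Ubqln2, a proteasome shuttle, by 1.52 on the log2 scale, and Ywhag, a 14-3-3 protein, by 1.35.

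**Figure D1:**
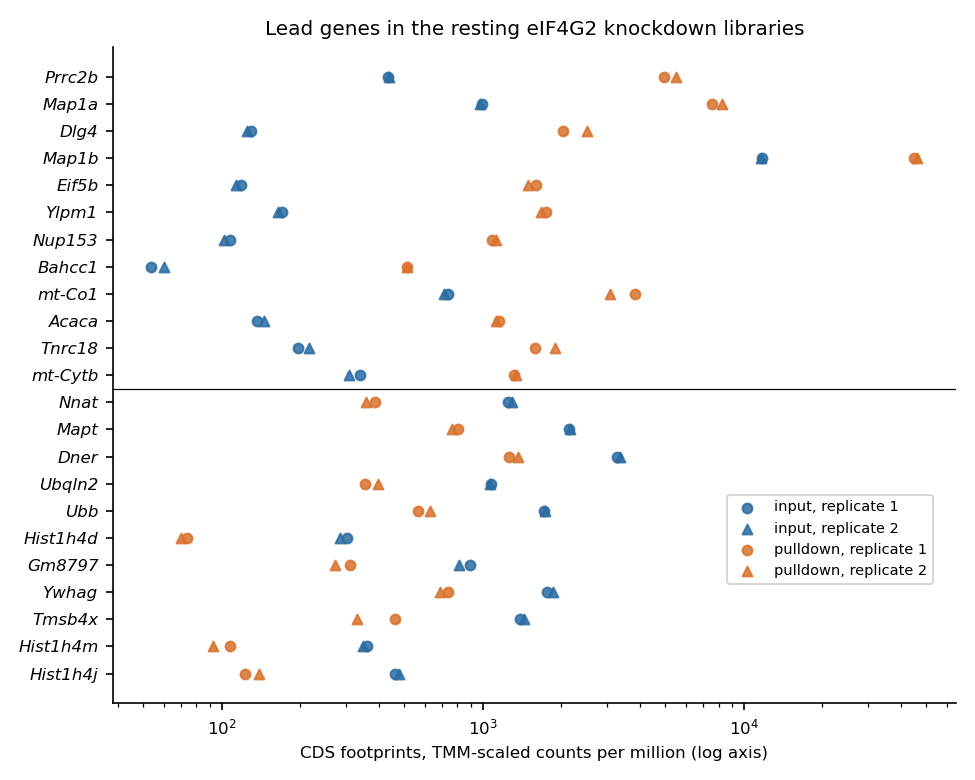
Coding footprints of lead genes (rows; above the line higher in the pulldown, below it lower), as TMM-scaled CPM on a log axis; blue is input, orange pulldown, circles replicate 1 and triangles replicate 2. In every row both orange points lie on 1 side of both blue points, as the rule that chose the genes requires.

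The proteins of the postsynaptic side were mostly higher in the pulldown where they passed. Over all genes tested 22.1% were higher and 23.4% lower, shares to set beside these and the later list counts. Of 31 postsynaptic density scaffolds and signalling enzymes, 18 were higher and 6 lower, with a median of 0.43 on the log2 scale against −0.01 over all genes. Shank1, a master scaffold, had 119 and 117 CPM in the inputs and 344 and 420 in the pulldowns (1.68 ± 0.13), and Tnik, a kinase, had a ratio of 1.10 ± 0.10. Camk2b, a subunit of the abundant CaMKII, was at −0.00 ± 0.08 and did not pass. Of 28 glutamate receptors and auxiliary subunits, 8 were higher and none lower (median 0.30), a share of higher genes near that over all genes. With the trend on coding length removed, 6 were higher and 2 lower (median −0.03). The AMPA receptor subunit Gria2 had 725 and 714 against 1295 and 1212 CPM (0.80 ± 0.08), and Grin2b stood at −0.03 ± 0.09 without passing. The NMDA receptor subunit Grin1 had a ratio of 0.24 ± 0.08, a call lost without either input (0.18 and 0.30) or without pulldown 1 (0.20). A 135 nt segment held 4.75% and 4.83% of its coding footprints in the inputs and 12.7% and 18.5% in the pulldowns, and without it the ratio of Grin1, on counts divided by library totals, was 0.08 and −0.17 instead of 0.21 and 0.06. Of 34 voltage-gated ion channel subunits, 19 were higher and 2 lower (median 0.74), among them the N-type calcium channel Cacna1b (1.25 ± 0.10) and the sodium channel Scn2a (0.74 ± 0.11).

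Presynaptic and axonal proteins divided, with 9 of 30 higher and 15 lower (median −0.17). The growth cone protein Gap43 (−1.15 ± 0.08) and the tubulin-binding protein Stmn1 (−1.44 ± 0.09) were lower, and Syn1 did not pass (−0.02 ± 0.08). Microtubule-associated and membrane skeleton proteins were higher for 15 of 22 and lower for 7 (median 0.61). With the trend on coding length removed, the median of this list was −0.16. The long genes Sptan1, an alpha spectrin (3652 and 3686 against 2002 and 2044 CPM, −0.86 ± 0.06), and Map2, the dendritic counterpart of tau (2866 and 2958 against 1496 and 1377 CPM, −1.02 ± 0.07), went the other way from Map1a and Map1b. Of 28 motor proteins 12 were higher and 9 lower (median 0.06), and with the length trend removed 5 were higher and 11 lower (median −0.29). Among them were the cytoplasmic dynein heavy chain Dync1h1 at 1511 and 1502 against 3120 and 2990 CPM (1.02 ± 0.07) and the axonal kinesin Kif1a at 0.20 ± 0.07, a call lost without either input (0.18 and 0.20) or without pulldown 2 (0.18). Large ubiquitin ligases were higher for 14 of 15 and lower for none (median 0.96), among them Huwe1 (0.94 ± 0.08), Ubr4 (0.96 ± 0.08) and Trip12 (1.80 ± 0.11). With the length trend removed, 3 of these ligases were higher and 5 lower (median −0.18). From a list of 20 mRNAs known from other work to reach dendrites, which shares Map1b and Map2 with the lists above, 11 were higher and 5 lower (median 0.51).

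The mitochondrial genes parted by the genome that encodes them. All 13 proteins encoded by mitochondrial DNA were higher in the pulldown and none was lower (median 2.01). The oxidase subunit mt-Co1 had 735 and 709 CPM in the inputs and 3841 and 3079 in the pulldowns (2.26 ± 0.08), mt-Cytb 339 and 307 against 1312 and 1338 (2.04 ± 0.08), and mt-Co3 254 and 237 against 1052 and 920 (2.01 ± 0.09). These mRNAs are translated inside the organelle, where no cytosolic ribosome reaches them. In the fit of the 10 resting libraries 9 of the 13 were higher with knockdown (median 1.99) and 7 without (median 1.19), none was lower in either, and none passed the test of the difference. The median difference was 0.89, and that test left out the pairing by replicate number. Nuclear-encoded subunits of the same complexes were lower for 61 of 77 and higher for 7 (median −1.09). Cox4i1, for instance, had 754 and 745 against 327 and 304 CPM (−1.25 ± 0.08), while Atp5b, at 2637 and 2635 against 2694 and 2658, did not pass.

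The translation machinery itself was largely lower in the pulldown. Cytosolic ribosomal proteins were lower for 68 of 76 and higher for 1 (median −1.23), such as Rpl8 (−1.21 ± 0.09) and Rps9 (−1.46 ± 0.10). With the trend on coding length removed, 19 of them were lower and 2 higher (median −0.26). Initiation factors were lower for 22 of 41 and higher for 5 (median −0.63). Eif5b, described above, and the eIF3 subunit Eif3c (1.15 ± 0.09) were among the 5, and Eif4g1 did not pass (−0.01 ± 0.09). Within the 14 members of the eIF4G family and its partners, 6 were lower and none higher (median −0.57), with the poly(A)-binding protein Pabpc1 at −1.08 ± 0.14. Elongation and termination factors were lower for 6 of 12 and higher for 2, among them Eef1a1 (−0.62 ± 0.09) and Eif5a (−1.47 ± 0.14), with Eef2 at 0.03 ± 0.07. Cytosolic tRNA synthetases divided evenly, 8 higher and 7 lower of 22 (Lars 0.78 ± 0.10, Eprs 0.69 ± 0.09, Aars −0.39 ± 0.08).

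Other housekeeping lists leaned downward. Histones were lower for 70 of 75 and higher for 2 (median −1.68), proteasome subunits lower for 18 of 34 and higher for 2 (median −0.48; Psmb1 −1.07 ± 0.10), and glycolytic enzymes lower for 8 of 16 and higher for 4 (Pfkp 1.34 ± 0.09, the muscle pyruvate kinase Pkm −0.61 ± 0.09). Of 39 proteins of the ER translocon, signal recognition and N-glycosylation, 18 were lower and 9 higher (median −0.28), and with the trend on coding length removed 13 were lower and 14 higher (median 0.11). The ribosome-binding ER protein Rrbp1 had 61.0 and 71.3 CPM in the inputs and 413 and 375 in the pulldowns (2.57 ± 0.16). The ER chaperone Calr was at 0.30 ± 0.08, with 1 segment of 204 nt holding 17.7% and 18.6% of its coding footprints in the inputs and 49.8% and 53.8% in the pulldowns, and without that segment its ratio, on counts divided by library totals, was −0.59 and −0.56. Among neuron markers 9 of 12 were lower and none higher (the neuronal endosome protein Nsg2 −1.37 ± 0.10), among astrocyte markers 3 of 10 were lower and 1 higher, and among vascular markers 4 of 6 were lower (Col1a1 −1.20 ± 0.15). The share of lower astrocyte markers was near the 23.4% over all genes.

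Genes known for regulation through their 5′ UTRs gave no common direction. The counts here stand against 22.1% higher and 23.4% lower over all genes, and the shares of higher genes in the first 2 lists were near the former. Of 14 with regulatory upstream open reading frames in the stress response, 4 were higher and 2 lower (median 0.16), with Ppp1r15b, a phosphatase subunit that reverses the stress response, at 1.60 ± 0.16 and the transcription factor Atf4 at −0.61 ± 0.16. Of 15 genes that the study itself had chosen for 5′ UTR reporters, 3 were higher and none lower (median 0.19), and 1 was higher with the replicate number as a block and 1 with DESeq2, with the centrosomal protein Mphosph9 at 2.22; that list was picked in the study and is no independent evidence of a direction. Immediate early genes, which activity induces, were lower for 6 of 19 and higher for 2 (Fos −0.57 ± 0.09, Jun −1.05 ± 0.13, Nr4a1 0.55 ± 0.11).

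**Figure D2:**
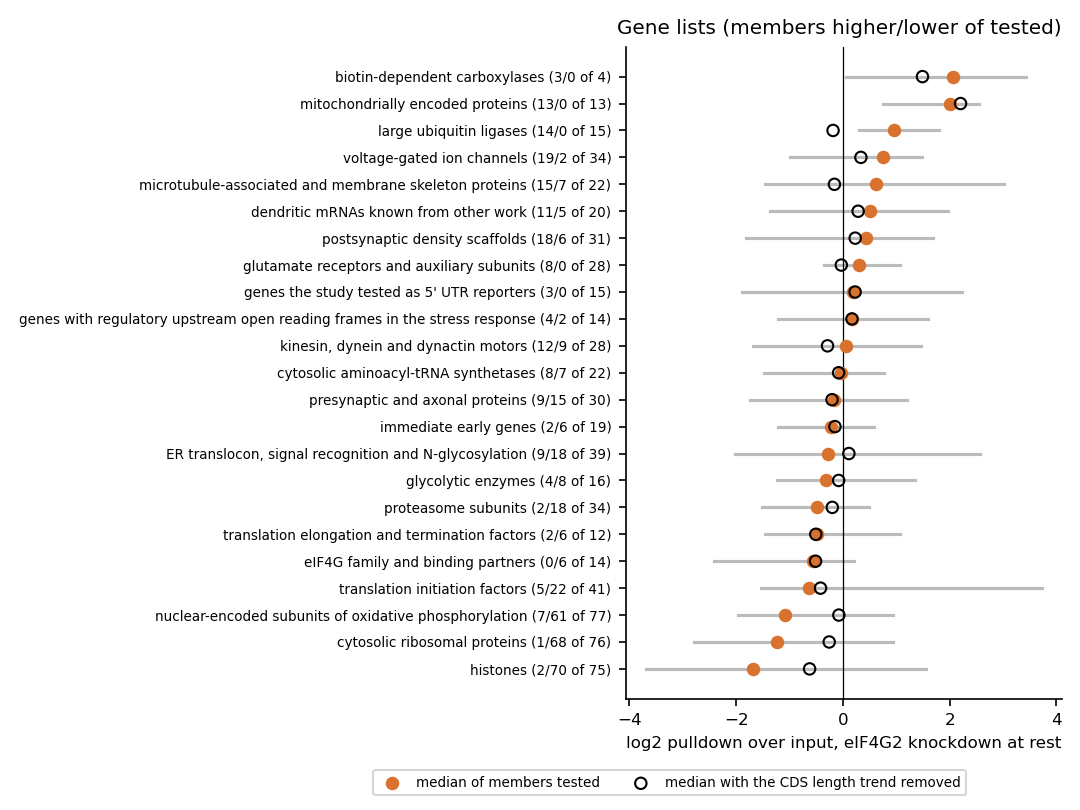
Log2 pulldown over input at rest with knockdown for each gene list: the orange point is the median of the members tested, the open circle the same median after the trend with CDS length was removed, the grey line the range of the members, and the label gives members higher/lower of those tested. Mitochondrially encoded proteins keep a median near 2 under both, while the medians of the large ubiquitin ligases and of nuclear-encoded oxidative phosphorylation subunits move close to 0.

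The ratio of pulldown to input followed the length of the coding sequence. Across the 12223 genes Spearman's rho between the log2 ratio and CDS length was 0.54, with 0.56 in depolarized knockdown neurons and 0.53 without knockdown, given as descriptions since genes of 1 library share its depth. Genes higher in the pulldown had a median CDS of 2457 nt, lower genes 837 nt and the remaining genes 1362 nt. Among 363 genes under 300 nt, 5 were higher and 205 lower (median −1.29), and among 358 genes over 6000 nt, 245 were higher and 34 lower (median 1.02). With the length trend removed, 1978 genes were higher and 2025 lower, among them 1593 of the 2700 (59.0%) and 1551 of the 2860 (54.2%). The medians of the lists moved with it: the large ubiquitin ligases came to −0.18, ribosomal proteins to −0.26, nuclear-encoded oxidative phosphorylation subunits to −0.08 and glutamate receptors to −0.03. Single genes changed sign as well, with Dync1h1 at −0.14, Huwe1 at −0.20, Ubr4 at −0.24, Kif1a at −0.57, Scn2a at −0.11, Grin1 at −0.16 and Eprs at −0.01, and Eif4g2 passed as lower (−0.52, adjusted p = 0.000658). Histones went from −1.68 to −0.62, ion channels from 0.74 to 0.34, postsynaptic scaffolds from 0.43 to 0.23 and mitochondrially encoded proteins from 2.01 to 2.20.

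Position within the coding sequence shifted as well. In 7053 genes with 10 or more CDS segments (the exon pieces for which counts were deposited), the first of 4 equal parts of the CDS held 26.1% and 26.1% of input footprints and 15.1% and 16.0% of pulldown footprints, and the last part 22.3% and 22.4% against 31.2% and 31.0%. Each segment was counted whole in the part that held its midpoint. Depolarized knockdown pulldowns held 14.4% and 14.7% in the first part, and pulldowns without knockdown between 16.0% and 17.9%, so the shift was not particular to the resting knockdown. Gene by gene, of 3713 genes with enough counts, 3070 (82.7%) had a smaller share in the first part and 2736 (73.7%) a larger share in the last part, in the pulldown of both pairs.

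In the resting knockdown the depletion near the start codon was interrupted. Segments were again counted whole in the stretch that held their midpoint, so their footprints can lie outside it. In 2017 genes with a CDS of at least 3000 nt, the log2 of the share of footprints in the pulldown over that in the input was −1.67 and −1.49 within 150 nt of the start codon, −0.72 and −0.51 from 150 to 300 nt, −0.96 and −0.90 from 300 to 600 nt, and rose to 0.58 and 0.58 beyond 4800 nt. The stretch from 150 to 300 nt thus stood above both its neighbours in both pairs. In depolarized knockdown neurons it was at −1.74 and −1.72, and without knockdown at −1.23, −1.20 and −1.39, between its neighbours in each of those 5 pairs. Without the 20 genes of largest excess in that stretch, the resting values were −1.48 and −1.30. The largest excess, by which the gene was chosen, was that of the cell adhesion protein L1cam, and others of the 20 encode surface or matrix proteins such as the proteoglycan neurocan (Ncan) and the lipoprotein receptor Lrp1. The segment counted there was 200 nt long and ended at nt 397 in L1cam. In Ncan it was 399 nt long and ended at nt 472.

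**Figure D3:**
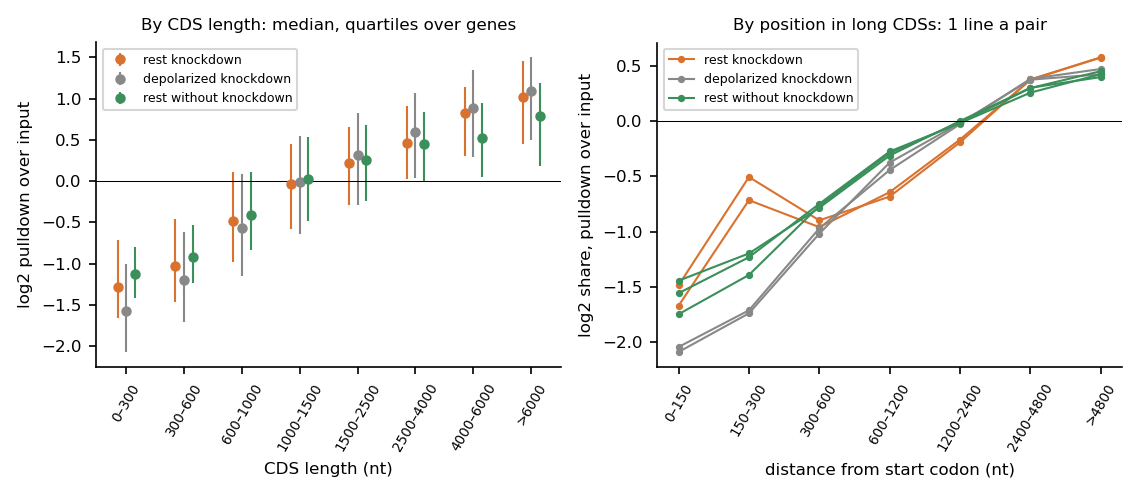
Left, log2 pulldown over input by CDS length in nt, with the median (point) and quartiles (bars) over genes, and right, log2 of the share of footprints in the pulldown over that in the input by distance of the segment midpoint from the start codon in 2017 long coding sequences, with 1 line a pair. Orange is the resting knockdown, grey the depolarized knockdown and green rest without knockdown. Medians climb from −1.29 to 1.02 at rest with knockdown, and at 150 to 300 nt the orange lines (−0.72 and −0.51) lie above the others.

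To place the shift along the coding sequence, the boundary between segments that best divided the CDS was found in pair 1 and then read in pair 2 and in the other experiments, as a description without a test. A gradual rise also gives a higher ratio after such a boundary, and the form of the rise was not compared; the difference across the boundary is called a step here. After the boundary the log2 ratio exceeded that before it in both pairs for 3224 of 3713 genes, and by more than 3 (8-fold) in both for 121 genes (3.26%), whose boundary lay at a median of 655 nt, 18.1% of the CDS. Of these 121, 32 also exceeded 3 in both depolarized pairs and 4 in all 3 pairs without knockdown. The cut and the boundary were set on the resting pairs, so fewer genes pass elsewhere by construction. The number of pairs differs too, and genes over 3 in the other experiments were not counted among all 3713. These counts therefore do not measure a difference between experiments. The 121 were chosen at rest, where their median step was 3.59 and 3.64; it was 3.18 and 2.91 in the depolarized knockdown and 1.91, 1.69 and 2.25 without knockdown, against 1.84 and 1.40, 1.80 and 1.78, and 1.26, 1.27 and 1.54 over all 3713 genes.

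Prrc2b (chromosome 2, 32182512 to 32230742) is among the 121. Before nt 1962 of its 6693 nt CDS the inputs held 1159 and 1584 counts and the pulldowns 482 and 293, whereas after it the inputs held 1766 and 1980 and the pulldowns 21139 and 12124. On the log2 scale the ratio went from −0.75 to 4.09 in pair 1 and from −0.69 to 4.36 in pair 2. Its whole enrichment thus lay past the boundary. In the depolarized knockdown the ratio after the boundary exceeded that before by 4.34 and 4.05. In neurons without knockdown it did so by only 0.82, 0.37 and 0.03. Ylpm1 went from −1.29 to 3.69 and from −1.46 to 3.73 at nt 1323, Nup153 from 0.07 to 3.66 and from −0.33 to 3.93 at nt 1711, and the corepressor Ncor1 from −1.30 to 2.99 and from −0.80 to 3.02 at nt 1355. In the depolarized knockdown the steps of these 3 genes were 3.69 and 4.32, 3.39 and 3.89, and 4.10 and 3.21. Like that of Prrc2b, they were not particular to rest. Without knockdown their steps, too, were small, between −0.59 and 1.23. Prrc2b and these 3 genes were among those of smallest p for a higher ratio with knockdown than without. The boundaries were also set with knockdown, so small steps without it are partly by construction. Acaca differed in its steps without knockdown. It went from −0.01 to 3.91 and from −0.12 to 3.84 at nt 2481 of 7038, and its steps without knockdown were 4.13, 2.31 and 2.61. Eif5b stepped at nt 1285 (from −0.38 to 4.02 and from −0.67 to 4.24) and stepped without knockdown by 2.47, 1.21 and 2.97.

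Only 2 of the 3713 genes stepped down by more than 3 in both pairs, L1cam and Snx1. L1cam had 1198 and 1524 input counts and 5229 and 3154 pulldown counts in its first 397 nt, a ratio of 2.64 and 2.80 on the log2 scale, and −1.08 and −1.05 after them. A single segment of 200 nt (chromosome X, 73865617 to 73865816, mm10) carried this excess. It held 7.50% and 7.35% of the coding footprints of L1cam in the inputs and 54.5% and 57.6% in the pulldowns, against 8.51% and 8.15% in the depolarized knockdown pulldowns and 4.16% to 4.98% in pulldowns without knockdown.

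**Figure D4:**
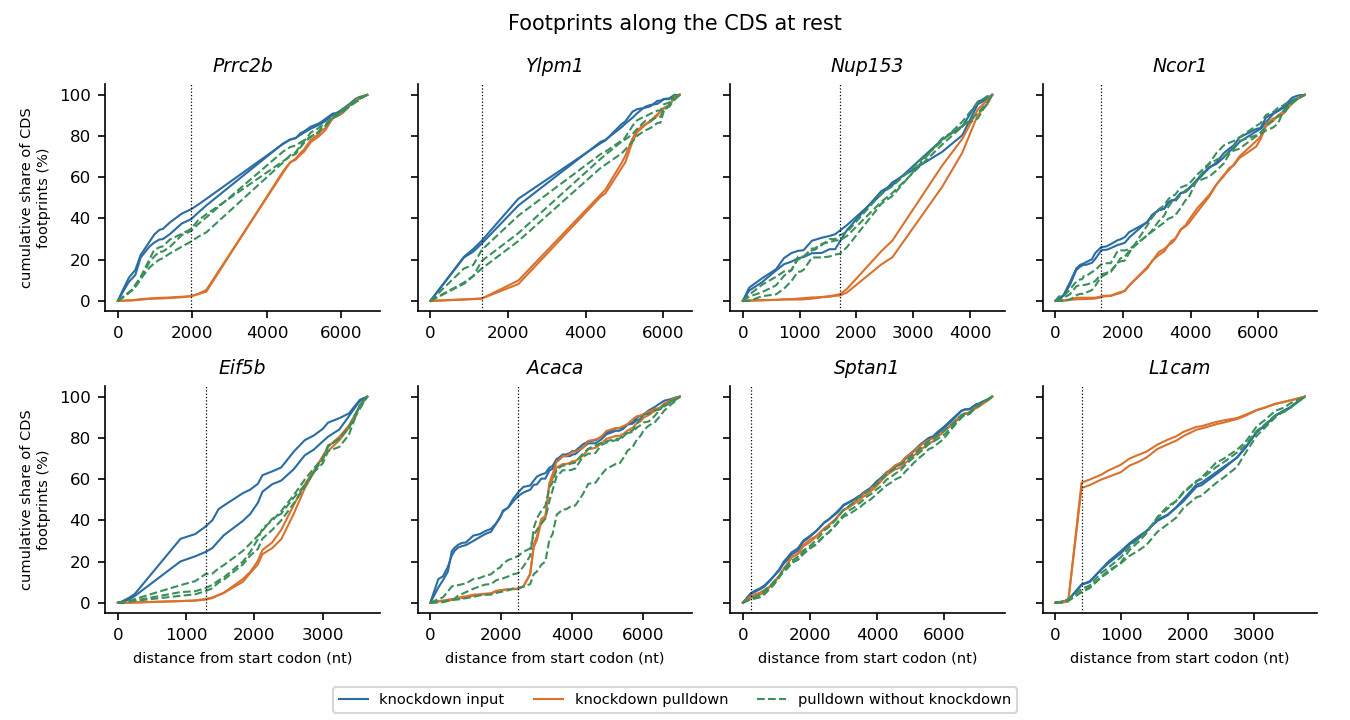
Cumulative share of coding footprints (%) against distance from the start codon (nt) for 8 genes at rest; blue lines are the 2 knockdown inputs, orange the 2 knockdown pulldowns, dashed green the 3 pulldowns without knockdown, and the dotted line the boundary found in pair 1. The depolarized knockdown, where Prrc2b, Ylpm1, Nup153 and Ncor1 also stepped by more than 3 on the log2 scale, is not drawn. Of the lines drawn, only the orange ones stay near 0 up to the boundary in those genes. In Acaca and Eif5b the green lines run low with the orange ones, and in Sptan1 all lines lie close together. In L1cam the orange lines jump within the first 397 nt.

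Did the resting pulldown differ from that of depolarized knockdown neurons? The test of the difference between both log2 ratios called 278 genes higher at rest (2.27%) and 183 lower (1.5%). Leaving out 1 library moved these counts, to 143 and 57 without resting input 1, 147 and 55 without resting input 2, 172 and 94 without depolarized input 1, and 123 and 43 without depolarized input 2. Without resting pulldown 2, 120 genes were lower, and without depolarized pulldown 2, 280. Of the 278, 130 had opposite signs in the 2 states, and their median ratio was 0.46 at rest and −0.91 after depolarization. The 5 leading genes encode secreted or surface proteins. Cst3, the secreted protease inhibitor cystatin C, had 355 and 367 CPM in the resting inputs and 659 and 707 in the resting pulldowns, against 513 and 574 and then 208 and 192 after depolarization, a difference of 2.36 ± 0.13 (adjusted p = 1.78e-11). Bsg, the surface protein basigin, had 605 and 663 against 1146 and 1682 CPM at rest, and 741 and 782 against 242 and 243 after depolarization (2.80 ± 0.17, adjusted p = 2.41e-11). Ly6h, a lipid-anchored surface protein, gave a difference of 2.24 ± 0.16, Timp2, an inhibitor of matrix proteases, 2.28 ± 0.18, and Sparc, a matrix glycoprotein, 1.79 ± 0.14. For all 5 both pulldowns lay above both inputs at rest and below them after depolarization. Cst3, Bsg, Ly6h and Timp2 also had higher ratios than without knockdown (1.88, 2.15, 1.72 and 2.03, adjusted p = 0.00401, 0.00018, 8.86e-05 and 0.000168), differences that were smaller or turned without 1 segment of each gene, as given next.

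In these 5 genes 1 segment of the coding sequence held most of the footprints in the resting pulldowns. The counts are per segment, so whether the footprints spread over it or stack at 1 place within it was not analysed here. In Bsg an 83 nt segment (chromosome 10, 79710058 to 79710140) held 6.88% and 6.13% of the coding footprints in the resting inputs and 60.9% and 67.6% in the resting pulldowns, with 22.6% and 12.6% in the depolarized pulldowns. Its counts were 281 and 331 in the inputs and 3039 and 2567 in the pulldowns. Without it the log2 ratio of Bsg, on counts divided by library totals, was −0.45 and −0.30 at rest instead of 0.80 and 1.24. In Sparc a 122 nt segment (chromosome 11, 55405180 to 55405301) went from 8.34% and 9.82% to 64.3% and 73.9%, and without it the ratio was −1.16 and −1.15 at rest against −1.47 and −1.56 after depolarization. In Timp2 a 109 nt segment (chromosome 11, 118317419 to 118317527) went from 15.2% and 12.7% to 78.2% and 76.4%, and in Cst3 a 114 nt segment (chromosome 2, 148872817 to 148872930) from 20.4% and 20.0% to 69.8% and 66.9%. In Ly6h it was the last of 3 segments, from 64.8% and 61.2% to 88.8% and 91.2%. Each such segment, like those of Grin1 and Calr above, was the one of largest gain in resting pair 1. Leaving it out therefore lowers the resting ratio of that pair by construction, and the size of the fall is a description. Without it the difference between rest and depolarization went from 2.35 to 1.5 in Cst3, from 2.77 to 1.58 in Bsg, from 2.23 to 0.74 in Ly6h, from 2.25 to 0.64 in Timp2 and from 1.78 to 0.36 in Sparc. The difference from neurons without knockdown, on the same scale, went from 1.87 to 0.69 in Cst3, from 2.09 to 0.72 in Bsg, from 1.69 to −0.24 in Ly6h and from 1.99 to 0.13 in Timp2.

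Such a segment was frequent among the genes of this direction. With the segment of largest gain chosen in pair 1, its share was at least 20 percentage points larger in the pulldown than in the input of both resting pairs for 380 of 5998 genes with 3 or more segments and at least 50 counts in each resting library (6.34%). Among the 278 genes it was so for 87 of 228 (38.2%), among the 183 for 2 of 165 (1.21%). In those 87 genes the segment had a median length of 162 nt, ran from a median of nt 234 to nt 406, and gained as much in both depolarized pairs in 15 genes and in all 3 pairs without knockdown in 3. These shares are a description, since the genes were called on the same libraries. The segment was also chosen for a gain at rest, which genes lower at rest could hardly show. No matching search for a segment that gains after depolarization was run, so these shares do not compare the directions.

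The 183 genes in the other direction were led by Homer1 and by tubulins. Homer1, a postsynaptic scaffold with an activity-induced short form, had 24.4 and 17.7 CPM in the resting inputs and 10.3 and 7.53 in the resting pulldowns, against 13.6 and 17.8 and then 67.7 and 112 after depolarization (−3.72 ± 0.43, adjusted p = 2.27e-06). The chosen Homer1 transcript counts 561 nt of coding sequence. A 93 nt segment of it (chromosome 13, 93349205 to 93349297) had 7 and 2 counts in the depolarized inputs and 97 and 108 in the depolarized pulldowns. Its log2 ratios there were 4.26 and 5.55, against −1.05 to 2.80 in the other segments with counts. Homer1 had too few resting counts for the measure without a segment. Tubb5 (−0.64), Tubb2a (−0.58), the importin Ipo5 (−0.91) and the collapsin response mediator Dpysl2 (−0.62) did not pass between pulldown and input at rest and had positive ratios after depolarization. Mitochondrially encoded proteins were higher at rest than after depolarization for 3 of 13 and lower for none, proteasome subunits higher for 1 and lower for 7 of 34. Over all genes 2.27% were higher and 1.5% lower. Other lists also had calls, among them immediate early genes (4 higher and 1 lower of 19) and large ubiquitin ligases (none and 4 of 15). The ER list had 5 higher and 1 lower of 39, and the mRNAs known to reach dendrites 4 and 1 of 20. Immediate early genes summed to 1239 and 1243 CPM in the resting inputs and to 7576 and 7772 in the depolarized inputs, without overlap.

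Did the resting pulldown with knockdown differ from that without? The difference was higher with knockdown for 255 of 12873 genes (1.98%) and lower for 92 (0.715%), and with the replicate number as a block for 615 and 692. Without knockdown input 1 or 2 the counts were 116 and 3 or 115 and 5, and without knockdown pulldown 1 or 2 they were 159 and 18 or 134 and 6; without input 2 of the neurons without knockdown, 53 genes were lower. siRNA and experiment cannot be told apart here, and marker levels differed too: interneuron markers summed to 763 and 773 CPM in the knockdown inputs and to 1746 to 2809 without knockdown, microglia markers to 18.6 to 24.9 against 2.08 to 3.82; their part in the result was not tested. The 255 genes had a median CDS of 3648 nt against 1395 nt over all genes, and all 255 had positive ratios with knockdown, 96 of them without. Nup153 had 111 and 104 CPM in the knockdown inputs and 1106 and 1139 in the pulldowns, whereas without knockdown 139, 143 and 158 stood against 102, 102 and 109 (3.88 ± 0.19, adjusted p = 1.34e-09). Prrc2b had 444 and 446 against 5052 and 5549 with knockdown, and 603, 676 and 772 against 401, 512 and 464 without (4.15 ± 0.20, adjusted p = 1.34e-09). Both genes thus had fewer footprints in the pulldown than in the input without knockdown, and more with it. Ylpm1 differed by 3.83 ± 0.20, Ncor1 by 2.43 ± 0.19 and the chromatin-associated protein Gse1 by 3.04 ± 0.26. Map1a (2.20, adjusted p = 0.0155) and Map1b (1.37, adjusted p = 0.000372) were also higher with knockdown.

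The genes of this comparison were called on the same libraries as their steps along the coding sequence, which are therefore a description. A segment that gained at least 20 percentage points in both resting pairs, as defined above, was found in 61 of 222 of the genes higher with knockdown (27.5%) and in 0 of 84 of the lower. The segment was chosen for its gain in the resting knockdown, which genes lower with knockdown could hardly show. Leaving it out therefore lowers the resting knockdown ratio by construction. In those 61 genes the median difference went from 1.62 to 0.67 without the segment. Over all 222 genes, each without its segment of largest gain, it went from 1.44 to 1.04. In the 149 of the 255 genes with enough counts the median step was 2.66 and 2.42 at rest with knockdown, 2.27 and 2.45 after depolarization with knockdown, and 0.91, 0.88 and 1.16 without, and 31 of them exceeded 3 in both resting pairs; the medians over all 3713 genes, given above, were also higher with knockdown than without in all but resting pair 2. In 48 of the 92 genes of the other direction it was 0.94 and 0.69 against 0.95, 1.06 and 1.25. Lower with knockdown were the giant cadherin Fat1 (−1.25 ± 0.21, adjusted p = 0.00207) and the chaperone Hsp90ab1 (−1.08, adjusted p = 0.00621). Pcdhgb4 (−1.01) and Pcdha4 (−1.10) belong to protocadherin clusters whose members share constant exons, so the division of their reads is uncertain. Each of these calls other than that of Fat1 was lost without at least 1 knockdown library, with differences between −0.93 and −1.05.

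**Figure D5:**
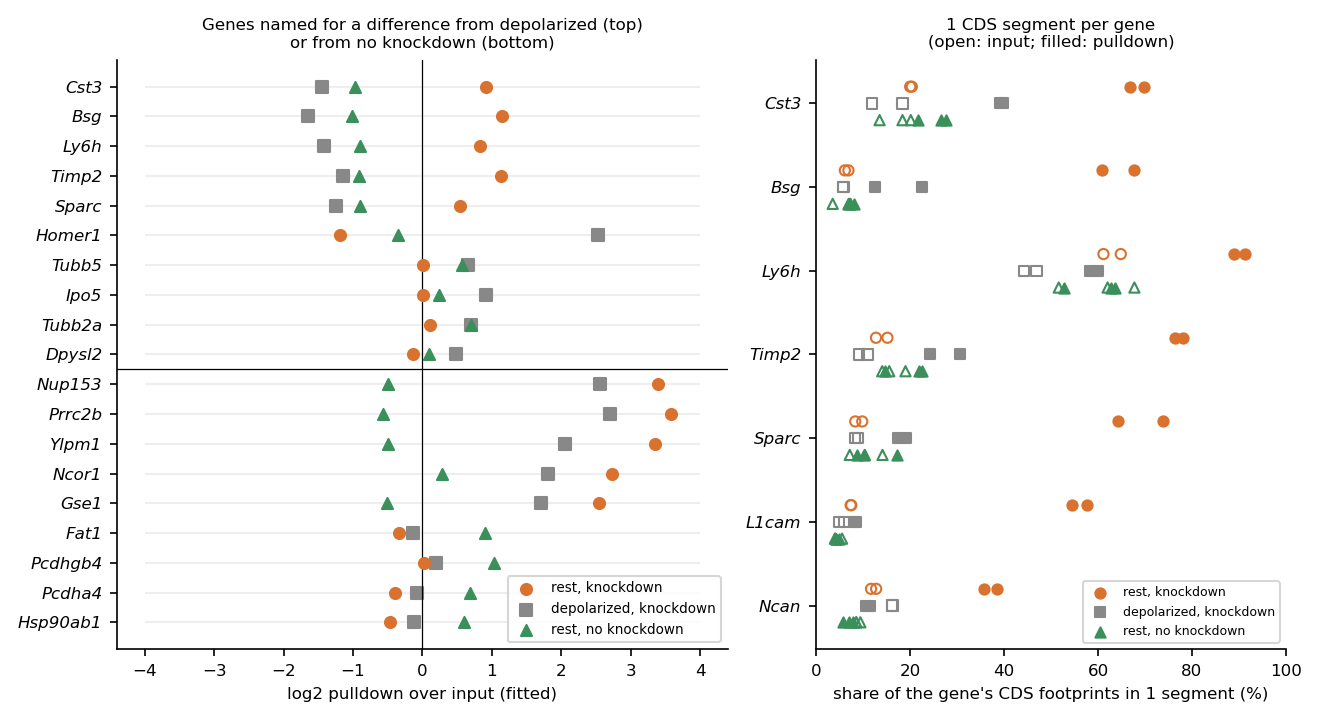
Left, fitted log2 pulldown over input of the genes named for a difference between rest and depolarization (above the line) or between knockdown and no knockdown (below it), with orange circles for the resting knockdown, grey squares for the depolarized knockdown and green triangles for rest without knockdown; right, share (%) of a gene's coding footprints in 1 CDS segment in each input (open) and pulldown (filled). Bsg holds 60.9% and 67.6% in that segment in the resting knockdown pulldowns, and the filled orange points lie to the right of the points of all other libraries in each of the 7 genes.

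Footprints in the untranslated regions were the last measure. Reads were counted by their 5′ ends, so a footprint that spans the start codon falls in the 5′ UTR segment. Such footprints were not separated from those wholly upstream of the start codon. The 5′ UTR segments of the chosen transcripts held 15.2% and 15.2% of the counts in 5′ UTR, CDS and 3′ UTR segments together in the inputs, and 5.19% and 6.0% in the pulldowns. Coding segments held 82.7% and 82.9% against 89.6% and 88.6%, and 3′ UTR segments 2.07% and 1.97% against 5.23% and 5.42%. In none of the 3 did the groups overlap, and the exact two-sided permutation p was 0.333, the smallest that 2 against 2 can give. The 3′ UTR of Tmem38b, which holds an annotated 5S rRNA gene, took 57.0% and 59.1% of the 3′ UTR counts in the pulldowns and 13.1% and 9.39% in the inputs. Without it the 3′ UTR share was 1.80% and 1.79% against 2.32% and 2.29%. Over all transcripts, rather than the chosen ones, the coding share rose by 2.06 percentage points instead of 6.28.

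Gene by gene, with library sizes from the coding counts, 5′ UTR footprints were lower in the pulldown for 4337 of 8062 genes (53.8%) and higher for 12 (0.149%), with a median of −1.46. Without input 1 or input 2 of the resting knockdown, 2655 or 2648 genes were lower and 4 or 2 higher, and without either depolarized pulldown 19 were higher. Scaled to the 5′ UTR counts themselves, 6 genes were lower and 40 higher, so few genes departed from the common decrease. Footprints that span the start codon are among these counts. In long coding sequences the share of coding footprints within 150 nt of it was lower in the pulldown too (log2 −1.67 and −1.49). These decreases were not told apart. Of 7949 genes with both measures, the 5′ UTR ratio lay below the CDS ratio in 7087 (89.2%). The alpha tubulin Tuba1a had 12418 and 13729 counts in the inputs and 1270 and 915 in the pulldowns (−2.34), and the gene model Gm49450 shares its reads. Hmgcs1, of cholesterol synthesis (−1.99), the receptor phosphatase Ptprs (−2.53) and Rpl13 (−2.13) followed. Among the 12 genes in the other direction, Rabggtb, with 16 and 1 counts in the inputs and 155 and 84 in the pulldowns (4.93, adjusted p = 3.88e-06), and Rpl32, with 176 and 209 against 174 and 123 (0.85, adjusted p = 0.0112), are the 2 of the 12 whose 5′ UTR overlaps an annotated small RNA gene, as do 48 of the 8062. Lime1, an adaptor of lymphocyte signalling, passed on few counts (5 and 1 against 41 and 30, adjusted p = 0.00106), Trank1 had 19 and 14 against 47 and 33 (2.47), and Fam193b 83 and 71 against 98 and 67 (1.30). The calls of Trank1 (2.15) and Fam193b (1.07) were lost without input 2, and that of Rpl32 without either input (0.87 and 0.84) or without pulldown 2 (0.62).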

How the data were processed

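Whole-number counts per transcript segment (5′ UTR, CDS, 3′ UTR) were deposited by the authors for each library. Per the methods, adapters, barcodes and 6 nt random tags were cut, reads over 20 nt were aligned to mm10 with Rsubread, and 5′ ends of reads of 25 to 100 nt were counted with plastid in UCSC knownGene segments; file headers mark removal of rRNA reads and duplicates. Strand use is not given in the sources used here. Replicates were not pooled. Segments were summed per transcript, 66750 of 67238 transcripts (99.3%) were matched to GENCODE symbols, and the longest coding transcript of each of 22443 genes was kept; reads shared by transcripts are counted in each.

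Counts were fitted with edgeR 4.0.16 (quasi-likelihood, TMM, filterByExpr; R 4.3.3) over the 8 knockdown libraries, or the 10 resting ones, and p-values were adjusted by Benjamini-Hochberg over all genes of a table. CPM are TMM-scaled. The scripts were tested on simulated data. Per the methods an input is a part of the fraction used for its pulldown, and equal numbers were taken to mark such a pair. The correlation of their deviations was 0.01 (knockdown, rest), −0.01 (knockdown, depolarized) and 0.21 to 0.48 (no knockdown). The knockdown libraries thus do not show the pairing. Members and lists were chosen with earlier results of these data known. Named are the 12 genes of smallest p in each direction whose pairs both moved that way, the 5 of smallest p for differences and 5′ UTRs, and per list the 3 most abundant members and that of smallest p (the text gives a part of them, and a few genes named by the rule are not reported here); L1cam, Ncan, Lrp1, Snx1 and Tmem38b were chosen after their values were seen. Step boundaries maximise a binomial likelihood in pair 1 with at least 10 input counts on each side. Alternatives were DESeq2 1.42.0, the likelihood ratio test, other size factors, filters, transcripts, a length trend, the replicate block and leaving out libraries. Depth limits what is detectable in low genes.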

Additional observations from a re-analysis of the deposited data

Results flagged for a closer look

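Each of these results was singled out because the log2 ratio of pulldown over input differed between states or experiments by a test of the difference itself. Between rest and depolarization with knockdown, the differences were 2.36 for Cst3, 2.80 for Bsg, 2.24 for Ly6h, 2.28 for Timp2 and 1.79 for Sparc, and in the other direction −3.72 for Homer1, −0.64 for Tubb5, −0.91 for Ipo5, −0.58 for Tubb2a and −0.62 for Dpysl2. In the first 5, a single coding segment held most of the footprints of the resting pulldown, and without it differences, on counts divided by library totals, of 1.5 (Cst3), 1.58 (Bsg), 0.74 (Ly6h), 0.64 (Timp2) and 0.36 (Sparc) were left. That segment was chosen for its gain at rest, so leaving it out lowers the resting ratio by construction. In Homer1 the largest log2 ratios after depolarization, 4.26 and 5.55, lay in 1 segment of 93 nt. Between the knockdown and no knockdown at rest, which also differ in experiment, they were 3.88 for Nup153, 4.15 for Prrc2b, 3.83 for Ylpm1, 2.43 for Ncor1 and 3.04 for Gse1, and −1.25 for Fat1, −1.01 for Pcdhgb4, −1.10 for Pcdha4 and −1.08 for Hsp90ab1.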

How the results depend on the processing

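The main comparison kept its calls within 1.5 times under the other tests, size factors, filters and transcript choices run, and without 1 library it gave 1828 to 2901 genes higher and 2024 to 3171 lower. The replicate block (2590 and 2779 genes) changed no count of calls there or between rest and depolarization (301 and 188) by over 1.5 times, but raised knockdown against no knockdown to 615 and 692, and to 592 and 655 with the length trend removed too. Between rest and depolarization, leaving out 1 library gave 123 to 371 genes higher and 43 to 280 lower, and the likelihood ratio test 283 lower. For knockdown against no knockdown, leaving out 1 library gave 115 to 280 higher and 3 to 128 lower: 3 without input 1 of the knockdown, 5 without input 2, 18 and 6 without pulldown 1 and 2, and 53 without input 2 of no knockdown; DESeq2 gave 174 lower and no filter 143. For 5′ UTR counts, genes higher numbered 21 by the likelihood ratio test, 6 with the block, 40 with 5′ UTR library sizes (6 lower), and 2 to 19 without 1 library (2648 to 5324 lower). Over all transcripts the shares moved by −7.0 (5′ UTR), 2.06 (CDS) and 4.95 (3′ UTR) percentage points, and without Tmem38b by 8.93 (CDS) and 0.508 (3′ UTR). Removing the length trend, with or without the block, turned Atp5b (−0.052, −0.052), Dync1h1 (−0.14, −0.14), Eef2 (−0.30, −0.30), Eprs (−0.0056, −0.011), Grin1 (−0.16, −0.16), Huwe1 (−0.20, −0.20), Kif1a (−0.57, −0.57), Scn2a (−0.11, −0.13) and Ubr4 (−0.24, −0.24). Values near 0 changed sign without a filter (Atp5b −0.022, Eef2 −0.015), with DESeq2 and its size factors (Camk2b 0.029 and 0.029, Eif4g1 0.025 and 0.025, Grin2b 0.0048, Syn1 0.012 and 0.013) and without 1 library (Atp5b −0.00474 to 0.025, Camk2b −0.081 to 0.048, Eef2 −0.024 to 0.057, Eif4g1 −0.14 to 0.080, Eif4g2 −0.38 to 0.010, Mccc1 −0.38 to 0.65, Syn1 −0.12 to 0.056). The cause was not tested. Leaving out libraries of the comparison groups, the block with the length trend and the share without Tmem38b were chosen after seeing the data.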

Other observations

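A segment can gain in a gene whose total hardly moved. In the matrix proteoglycan Ncan a 399 nt segment (chromosome 8, 70114989 to 70115387) held 11.7% and 12.8% of the coding footprints in the resting inputs and 35.6% and 38.5% in the resting pulldowns, against 10.6% and 11.4% in the depolarized knockdown pulldowns and 5.78% to 7.85% in the pulldowns without knockdown. Over the whole gene the log2 ratio at rest was −0.23 and 0.02, and without that segment −0.68 and −0.48. L1cam gave −0.03 and 0.08 over the whole gene and −1.06 and −1.05 without its 200 nt segment, so the sum over the coding sequence does not show the segment in either gene.

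In Map1a and Map1b the excess ran from the longest segment of the coding sequence to its end, and the counts do not show how it lay within the longest segment. The 5 prime 564 nt of Map1a, in 4 segments, had log2 ratios between −4.50 and 0.06, and the following segment of 8104 nt had 2.88 and 3.06, with 6202 and 7320 counts in the inputs and 32050 and 18159 in the pulldowns; the last 2 segments had 2.16 and 2.40, and 1.65 and 1.51. In Map1b the first segment of 184 nt had −2.00 and −1.61 (3209 and 3978 counts in the inputs, 562 and 388 in the pulldowns) and the segment of 6490 nt 1.88 and 1.95, followed by 2.28 and 2.55, and 2.56 and 2.47, in the last 2. In the depolarized knockdown that Map1b segment was at 2.18 and 2.41, and without knockdown at 0.45, 0.47 and 0.84.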
